A study of Mus musculus with 15 samples.

Results

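Twist1 encodes a basic helix-loop-helix transcription factor that is made in the mesenchyme of the embryonic head, in cells from the cranial mesoderm and from the neural crest. In mice without it the cranial neural tube fails to close and the head mesenchyme is reduced, and loss of 1 copy in humans causes a craniofacial syndrome with early fusion of skull sutures. Mesp1-Cre removes floxed sequence in the earliest mesoderm, whose descendants include the head mesoderm, blood vessel endothelium and the heart. The head mesoderm gives rise to head muscle, part of the skull and the vessels, while the bones of the face come largely from the neural crest.

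The 8 heads described here, of 15 in the series, were those in which the floxed Twist1 allele lay over a deleted one. They were chosen by genotype label. In the 4 CM-CKO heads (Twist1 flox/del with Mesp1 Cre/+) Cre acted on the only intact copy in the mesoderm lineage. The 4 Het heads (Twist1 flox/del with Mesp1 +/+) carried the same Twist1 alleles and no Cre. All other cells of both groups kept 1 intact copy. The 7 remaining heads were 4 CM-Het heads (Twist1 flox/+ with Mesp1 Cre/+) and 3 Control heads (Twist1 flox/+ with Mesp1 +/+). They entered the joint fit, which takes the spread between heads from all 15 arrays, and the test of whether the Cre effect differed between the second Twist1 alleles. All 15 were whole heads of C57Bl/6 x 129 x BALB/c descent at embryonic day 9.5 with 18 to 20 somites, each on an array of its own. CM-CKO heads differ from Het heads in Cre, in 1 copy of Mesp1, which the Cre gene replaces, and in the loss of Twist1, and this pair of groups cannot tell these apart. The labels do not give litters, so the p-values measure the spread between these embryos only.

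Genes of the low-oxygen response, of actin-rich cells and of the amino acid stress response were among the largest rises in CM-CKO heads, and promoter sequences of some of them are shown here because each group has a known DNA motif. Windows were the 250 bases before the start site of 32851 mouse promoters (RefSeq, GRCm38.p6), searched on both strands. The CArG box, a 10-base site bound by serum response factor (SRF), lay in 1.47% of all windows and in those of Actc1, Acta1 and Myl9, which rose, and of Cnn2, which did not pass. It is in capitals in these stretches of 70 bases, each 5′ to 3′ on the gene's strand.
Actc1, chr2:114052883-114052952, minus strand: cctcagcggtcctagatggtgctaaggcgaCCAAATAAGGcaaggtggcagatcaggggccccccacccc
Acta1, chr8:123894809-123894878, minus strand: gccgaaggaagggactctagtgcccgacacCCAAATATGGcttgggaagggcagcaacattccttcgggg
Myl9, chr2:156775273-156775342, plus strand: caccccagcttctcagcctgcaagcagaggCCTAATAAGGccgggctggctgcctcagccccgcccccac
Cnn2, chr10:79988514-79988583, plus strand: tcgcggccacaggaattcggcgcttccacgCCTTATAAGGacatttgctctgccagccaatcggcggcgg
The element TGATGNAAN, bound by ATF4 with C/EBP partners, lay in 3.44% of all windows and is in capitals, as its reverse complement, in stretches of 69 bases from Chac1 and from 1 of the Vldlr promoters.
Chac1, chr2:119351018-119351086, plus strand: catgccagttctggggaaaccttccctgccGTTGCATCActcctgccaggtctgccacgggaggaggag
Vldlr, chr19:27216789-27216857, plus strand: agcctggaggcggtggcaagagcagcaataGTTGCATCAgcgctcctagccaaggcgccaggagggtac
The core of the hypoxia response element, ACGTG, lay in 16.6% of all windows and is in capitals in a stretch of Ankrd37, and on both strands, as an overlapping pair, in Ppp1r3c.
Ankrd37, chr8:46000057-46000100, minus strand: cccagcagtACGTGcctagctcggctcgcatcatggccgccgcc
Ppp1r3c, chr19:36736673-36736738, minus strand: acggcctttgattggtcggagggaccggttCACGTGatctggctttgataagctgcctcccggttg
Among list members that rose and had a promoter in the table, 3 of 8 SRF targets held the CArG box, 4 of 12 genes of the ATF4 list held TGATGNAAN and 12 of 17 hypoxia-inducible genes held ACGTG. Among members that did not pass, the shares were 3 of 10, 3 of 13 and 1 of 3. A gene counted if any of its promoters held the motif. The percentages of all windows count single windows, so they are not directly comparable with these shares of genes. A match describes these letters in these windows and is not evidence that a factor was bound.

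The arrays were of even brightness, with a mean signal of 362 to 426 and 19204 to 19657 detected probes per array over the 8 heads. Values below are log2 signals after background correction and quantile normalization. Those of CM-CKO heads 1 to 4 are given in that order, followed by Het heads 1 to 4. Slide 1 carried CM-CKO 1, 2 and 3 with Het 1. Slide 3 carried CM-CKO 4 with Het 4, and slide 2 carried Het 2 and 3 and no CM-CKO head. Within slide 1 the comparison therefore rests on 1 Het head, and within slide 3 on 1 head of each group. CM-CKO 2 and Het 4 had high Xist (10.54 and 10.26, against 4.27 to 4.68 in the other 6 heads), so each group held 1 female and 3 male patterns. CM-CKO 4 and Het 4, the pair within slide 3, differed in that pattern.

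Twist1 itself (chromosome 12, 33957671 to 33959831, GRCm38.p6) was detected on all arrays. It measured 9.23, 8.94, 9.13 and 9.34 in CM-CKO heads, against 8.62, 9.13, 8.80 and 9.32 in Het heads. CM-Het heads ranged from 9.76 to 10.04 and Control heads from 9.87 to 9.95. The CM-CKO and Het groups overlapped, and the difference of 0.19 was not past the threshold by an exact two-sided permutation test over 70 splits (p = 0.286, smallest possible 0.0286). The probe's place relative to the deleted part was not available here, and cells outside the Cre lineage keep the gene, so the level does not measure excision. Twist2, the close relative of Twist1, fell by 0.51 ± 0.13 (limma adjusted p = 0.0273). It measured 7.05, 6.78, 6.73 and 6.49 in CM-CKO heads, against 7.33, 7.16, 7.49 and 7.11 in Het heads. The highest CM-CKO head lay just below the lowest Het head. Its call ended with median scaling and without CM-CKO 2, CM-CKO 4 or Het 3 (adjusted p up to 0.0875). It also ended when the 8 arrays of this comparison were fitted alone (adjusted p = 0.0887). Mesp1 and Mesp2 were detected on 0 arrays of these heads.

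In all, 985 of 11625 genes (8.47%) differed between CM-CKO and Het heads at a limma adjusted p under 0.05 over all genes. Of these, 482 were higher (4.15% of all genes) and 503 lower (4.33%). The rises were larger: 185 genes rose and 20 fell by at least 2-fold, with median changes of 0.80 and −0.51. The median over all genes was −0.042, and the groups did not overlap for 1359 genes (11.7%: 5.12% higher and 6.57% lower), among them 815 of the 985. Within slide 1 and within slide 3 the sign was the same for 976 of the 985 genes. The genes were chosen on these same arrays, and the 2 slides hold every CM-CKO head. This agreement was therefore largely set by the choice and does not test the effect of slide. With slide as a block 1172 genes passed (10.1%), 699 of them shared with the 985. The count was 333 (194 higher and 139 lower) when the 8 arrays of this comparison were fitted alone, 582 with median scaling, and 504 without CM-CKO 2, 629 without Het 3 and 639 without Het 2.

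A separate test asked whether Cre changed a gene differently over a deleted than over a wild-type second allele, as the interaction, (CM-CKO minus Het) minus (CM-Het minus Control). It passed for 124 genes (1.07%), 78 higher (0.671%) and 46 lower (0.396%), and all 124 were among the 985 with the same sign. With slide as a block the count was 263, and leaving out any 1 of the CM-Het heads, the Control heads, CM-CKO 2 or Het 4 gave 57 to 77. Leaving out CM-CKO 1, CM-CKO 3 or Het 1 gave 199 to 330. Between CM-Het and Control heads 0 genes passed by limma, and 413 had an unadjusted p under 0.05, against 2763 between CM-CKO and Het heads. The genes with the lowest interaction p were Ankrd1, Ppp1r3c, Actc1, Mt1, Ier3, Chac1, Acta1, Bhlhe40, Gja4, Lum, Tagln and Plekha2. Their changes in CM-CKO against Het heads are described with their groups, while in CM-Het against Control heads the 12 changes ran from −0.29 for Ier3 to 0.29 for Chac1.

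**Figure D1:**
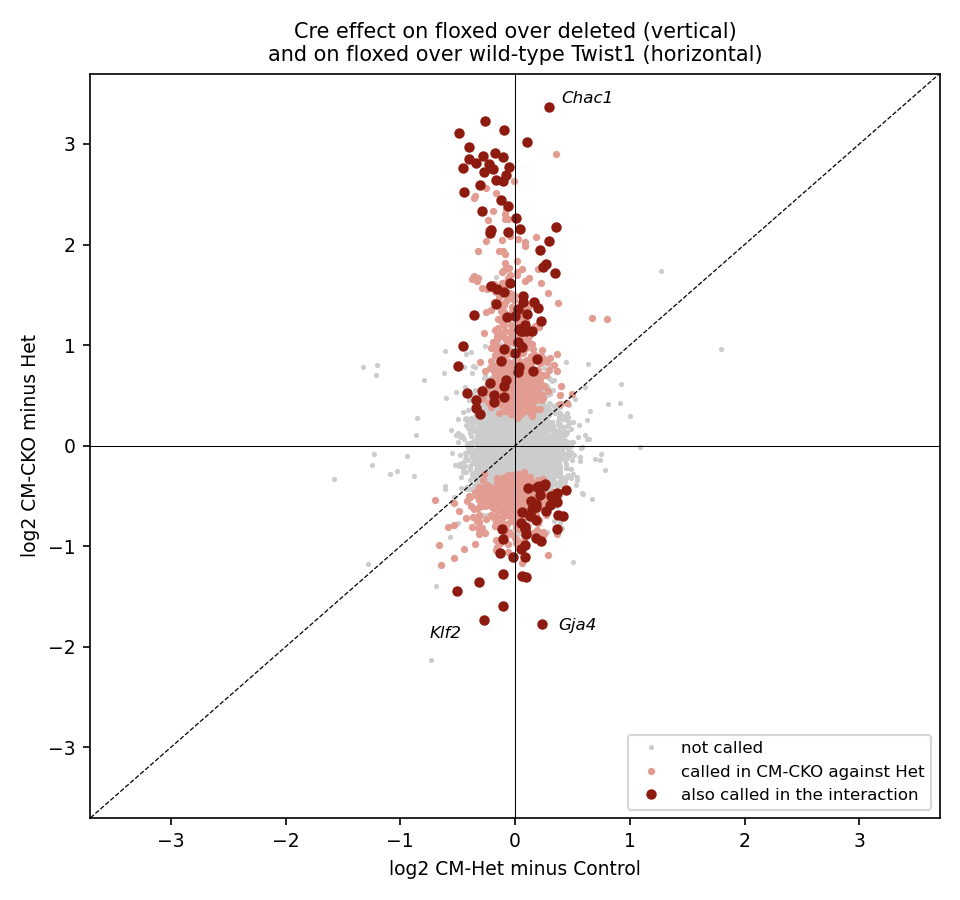
Each point is 1 of 11625 genes, with its log2 change between CM-CKO and Het heads on the vertical axis and between CM-Het and Control heads on the horizontal axis (dashed line: equal changes). The 985 called genes spread along the vertical axis, up to 3.37 for Chac1, on whose values they were chosen, and the 124 genes called in the interaction are drawn dark.

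Genes switched on by low oxygen through hypoxia-inducible factors rose together. Outside glycolysis 21 of 25 tested members passed as higher and 0 as lower, against 4.15% and 4.33% of all genes, with a median change of 0.84 against −0.042 over all genes. The counts of every list below are to be read against the same shares. The mean of the list stood 0.91, 1.09, 0.93 and 0.80 above the Het mean in CM-CKO heads, and at −0.074 to 0.091 around it in Het heads. The list median was 0.77 with slide as a block, 0.87 within slide 1 and 0.54 within slide 3. Leaving out single heads left 17 to 20 members higher.

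Bhlhe40, a repressor of the circadian clock and a target of HIF1A, measured 8.24, 8.09, 8.07 and 7.29 in CM-CKO heads, against 5.45, 5.29, 4.93 and 4.93 in Het heads. It rose by 2.78 ± 0.21 or 6.85-fold (adjusted p = 9.08e-07), and its lowest CM-CKO head lay far above the highest Het head. Ddit4, an inhibitor of mTORC1, measured 11.19, 11.17, 11.26 and 10.96 in CM-CKO heads, against 9.18, 9.33, 8.51 and 8.85 in Het heads. It rose by 2.18 ± 0.15 (adjusted p = 4.98e-07), and its 4 CM-CKO heads lay within a narrow band. Stc2, a secreted glycoprotein, rose by 1.95 ± 0.16 (adjusted p = 1.27e-06), and with an SD of 0.066 it was among the genes whose CM-CKO heads were most alike. Ppp1r3c, a subunit that targets protein phosphatase 1 to glycogen, measured 8.55, 8.52, 8.44 and 8.04 in CM-CKO heads, against 6.94, 6.85, 6.90 and 6.72 in Het heads. It rose by 1.53 ± 0.11 (adjusted p = 4.58e-07), and its interaction was 1.63 ± 0.16 (adjusted p = 7.48e-05). Ankrd37, an ankyrin repeat protein, rose by 1.62 ± 0.14 (adjusted p = 2.64e-06). Egln3, an oxygen sensor that marks HIF proteins for destruction, rose by 1.35 ± 0.15 (adjusted p = 3.73e-05). Hif1a, the oxygen-regulated subunit itself, stood at −0.088 by its brightest probe (adjusted p = 0.851), whereas the mean of its probes stood at 0.66 (adjusted p = 0.00595), so its probes disagreed. Higd1a, a mitochondrial protein of the same list, stood at 0.15 (adjusted p = 0.518).

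In glucose uptake and glycolysis 11 of 20 members rose and 0 fell, with a median of 0.52 (0.51 with slide as a block, 0.51 within slide 1 and 0.57 within slide 3). Pdk1, the kinase that keeps pyruvate out of the mitochondrial citric acid cycle, measured 10.62, 10.43, 10.60 and 10.64 in CM-CKO heads, against 9.61, 9.48, 9.04 and 9.17 in Het heads. It rose by 1.24 ± 0.14 (adjusted p = 7.7e-05) without overlap of the groups. Pgm1, which interconverts glucose phosphates on the way to glycogen, rose by 1.20 ± 0.11 (adjusted p = 9.51e-06). The platelet-type phosphofructokinase Pfkp rose by 1.06 ± 0.15 (adjusted p = 0.00055), and Pfkfb4, which sets the level of the phosphofructokinase activator, by 1.30 ± 0.29 (adjusted p = 0.0122). Aldoc, the brain-type aldolase, rose by 0.92 ± 0.11 (adjusted p = 0.000164) and the hexokinase Hk1 by 0.80 ± 0.16 (adjusted p = 0.00575). With the 8 arrays alone the Pfkfb4 call ended (adjusted p = 0.084). Of the members that did not pass, those at the highest levels included Gapdh, Ldha and Tpi1. Gapdh stood at −0.038 (adjusted p = 0.8), Ldha at −0.071 (0.62) and Tpi1 at 0.21 (0.189). Their levels, 13.21 to 13.79, were near the top of the scale. The mean of the Tpi1 probes passed, at 0.45 (adjusted p = 0.00224). Txnip, an inhibitor of glucose uptake that is induced by glucose, fell by 1.31 ± 0.19 (adjusted p = 0.000563). It measured 7.95, 7.24, 7.58 and 7.49 in CM-CKO heads, against 9.22, 9.06, 8.84 and 8.37 in Het heads.

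Genes of smooth muscle and of SRF, the factor that switches on actin genes, formed a further group. Of 22 members 10 rose and 0 fell, with a median of 0.37, and 4 more members were not detected on enough arrays. The 10 include Acta1, which no Het array detected. Detection in the CM-CKO heads was enough for a gene to be tested. The median was 0.37 with slide as a block, where 9 members rose and 1 fell, 0.56 within slide 1 and 0.19 within slide 3. The list mean stood 0.56, 0.55, 0.63 and 0.48 above the Het mean in CM-CKO heads, and at −0.054 to 0.069 in Het heads. Ankrd1, not a member of the list and a cardiac ankyrin repeat protein also induced in stretched tissue, measured 6.62, 7.42, 7.05 and 7.29 in CM-CKO heads, against 4.35, 4.57, 4.38 and 4.54 in Het heads. No Het array detected it, which makes it at least 5.14-fold higher (adjusted p = 1.27e-07). Actc1, the cardiac actin, measured 8.70, 8.75, 9.23 and 9.12 in CM-CKO heads, against 6.73, 6.32, 6.62 and 7.05 in Het heads. It rose by 2.27 ± 0.15 or 4.82-fold (adjusted p = 2.93e-07), and its CM-CKO heads all lay more than 1 log2 unit above every Het head. Acta1, the skeletal muscle actin, was not detected on any Het array and was at least 4.57-fold higher (adjusted p = 6.97e-07), with 6.81, 6.92, 6.74 and 7.22 in CM-CKO heads. Acta2, the smooth muscle actin, rose by 1.43 ± 0.17 (adjusted p = 0.000114). Tagln, whose product binds actin filaments, was detected on 2 of 4 Het arrays and was higher by 1.49 ± 0.12 (adjusted p = 9.08e-07) and the myosin light chain Myl9 by 1.03 ± 0.15 (adjusted p = 0.000522). Ccn1, a matricellular protein, rose by 1.30 ± 0.18 (adjusted p = 0.00055). Members that did not pass were the LIM protein Csrp2 (−0.16), the actin cross-linker Actn1 (0.15), the adhesion protein Vcl (0.35) and Tagln2 (0.41, adjusted p = 0.0513), though Tagln2 passed with slide as a block (0.63, adjusted p = 0.00331). Cnn2, named here only for its promoter and so chosen after its values were seen, stood at 0.38 (adjusted p = 0.146), and the mean of its probes passed (adjusted p = 0.0458).

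In the separate list of heart muscle genes 1 of 7 tested members rose, the myosin-binding gene Mybpc3, which no Het array detected and which was at least 1.1-fold higher (adjusted p = 0.0259), and 14 more members were not detected on enough arrays. The Mybpc3 call ended with slide as a block (adjusted p = 0.108) and without CM-CKO 2, Het 2 or Het 4 (adjusted p up to 0.0945). The regulator Mef2c stood at 0.19 (adjusted p = 0.407).

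**Figure D2:**
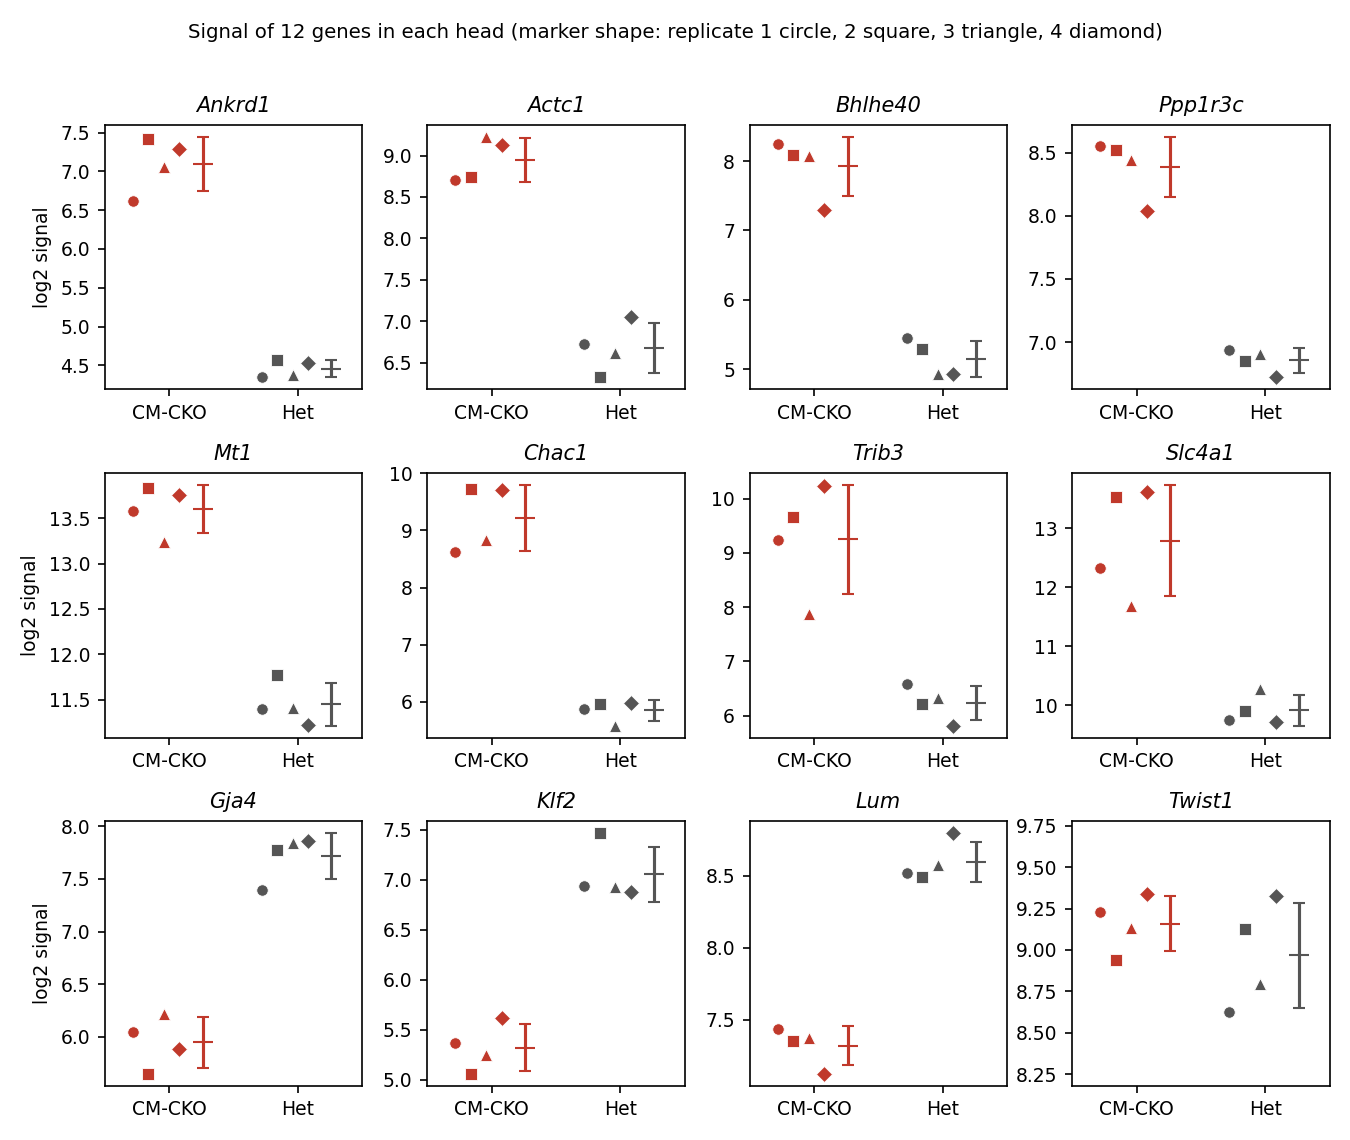
Log2 signal of 12 genes in the 4 CM-CKO heads (left, red) and the 4 Het heads (right, grey), with a marker per head and the mean ± SD beside it. In 11 genes the groups do not overlap, as for Ankrd1 at 6.62 to 7.42 against 4.35 to 4.57, while the Twist1 groups overlap.

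Immediate early genes, which cells switch on within minutes of a stimulus, rose in 8 of 17 cases and fell in 0, with a median of 0.46 (0.47 with slide as a block, 0.45 within slide 1, 0.51 within slide 3). Leaving out single heads left 5 to 8 members higher, the fewest without CM-CKO 2 or Het 3, and the 8 arrays alone left 5. Ier3, a regulator of survival under stress, measured 8.67, 8.37, 8.32 and 8.06 in CM-CKO heads, against 5.95, 6.25, 5.68 and 6.19 in Het heads. It rose by 2.34 ± 0.18 or 5.05-fold (adjusted p = 9.08e-07). The zinc finger factor Egr1 rose by 1.59 ± 0.17 (adjusted p = 5.05e-05), with 8.74, 9.52, 8.71 and 9.5 in CM-CKO heads against 7.64, 7.43, 7.59 and 7.46 in Het heads. Zfp36, which speeds decay of short-lived mRNAs, rose by 0.97 ± 0.20 (adjusted p = 0.00858), and the stress factor Atf3 by 0.93 ± 0.18 (adjusted p = 0.00548). Junb rose by 0.81 ± 0.21 (adjusted p = 0.0283) and Gadd45b, detected on 1 of 4 Het arrays, by 0.63 ± 0.14 (adjusted p = 0.00984). The call of Junb ended without CM-CKO 2, CM-CKO 4, Het 1 or Het 3 (adjusted p up to 0.0804). Jun (0.19) and Myc (0.26) did not pass (adjusted p = 0.433 and 0.29).

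ATF4 is the factor that cells use to restore amino acid supply under stress, and 14 of 31 genes of its list rose while 1 fell. The median was 0.41 (0.39 with slide as a block, 0.25 within slide 1, 0.74 within slide 3). Chac1, which breaks down glutathione, had the largest rise of any gene in this comparison. It measured 8.62, 9.73, 8.83 and 9.70 in CM-CKO heads, against 5.87, 5.97, 5.59 and 5.99 in Het heads. The rise was 3.37 ± 0.22 or 10.3-fold (adjusted p = 2.93e-07). Trib3, a pseudokinase that dampens the same response, measured 9.23, 9.66, 7.88 and 10.24 in CM-CKO heads, against 6.58, 6.21, 6.33 and 5.82 in Het heads. It rose by 3.02 ± 0.35 (adjusted p = 7.68e-05), with CM-CKO 3 more than 1 log2 unit below the other 3. Vldlr, a lipoprotein receptor, rose by 1.80 ± 0.13 (adjusted p = 6.97e-07). The amino acid transporters Slc7a3 and Slc6a9 rose by 1.78 ± 0.19 (adjusted p = 3.61e-05) and 1.77 ± 0.31 (adjusted p = 0.00252). Ddit3, the factor CHOP of stress-induced cell death, rose by 1.58 ± 0.30 (adjusted p = 0.00508) and measured 7.36, 7.93, 6.61 and 8.79 in CM-CKO heads, against 6.28, 6.24, 6.04 and 5.79 in Het heads. Among members that did not pass, the tRNA ligases Gars and Wars stood at 0.12 and −0.18, and Psat1 of serine synthesis stood at 0.11 (adjusted p = 0.333, 0.244 and 0.502).

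Chaperones of the endoplasmic reticulum, the targets of the other arms of the unfolded protein response, gave 0 of 17 calls in either direction by limma, with 3 at an unadjusted p under 0.05 and a median of −0.047. Hsp90b1 stood at 0.11, Pdia3 at −0.12 and Syvn1 at −0.14 (adjusted p = 0.612, 0.443 and 0.488). Of 13 cytosolic heat shock genes 3 rose. Hspa1a, the inducible HSP70, was not detected on any Het array and measured 5.40, 8.09, 5.65 and 10.79 in CM-CKO heads, at least 6.74-fold higher (adjusted p = 0.0322). Its SD of 2.52 was the largest of all called genes, and CM-CKO 4 alone lay above 10. Its call ended without CM-CKO 2, Het 1, Het 2, Het 3 or Het 4 (adjusted p up to 0.0987), without background correction and in the authors' value table. The small heat shock proteins Hspb1 and Cryab rose by 1.09 ± 0.20 (adjusted p = 0.00374) and 0.75 ± 0.17 (adjusted p = 0.0136). Mt1, a metallothionein that binds zinc and copper, measured 13.58, 13.83, 13.24 and 13.76 in CM-CKO heads, against 11.39, 11.77, 11.41 and 11.22 in Het heads. It rose by 2.15 ± 0.14 or 4.45-fold (adjusted p = 2.93e-07), near the top of the scale. Plekha2, an adaptor that binds membrane phosphoinositides, rose by 1.31 ± 0.10 (adjusted p = 6.97e-07) with 9.62, 9.67, 9.43 and 9.63 in CM-CKO heads against 8.27, 8.31, 8.16 and 8.36 in Het heads.

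Red blood cell genes had the highest median change of the 34 lists. Of 34 tested members 28 rose and 0 fell, with a median of 2.08 (2.54 with slide as a block, 1.69 within slide 1, 3.50 within slide 3). Leaving out single heads left 21 to 30 members higher, the fewest without CM-CKO 2, and the 8 arrays alone left 14. In whole heads, more red cells and more RNA per cell cannot be told apart, and the same holds for every other cell type below. Alas2, the first enzyme of red cell heme synthesis, measured 10.57, 11.86, 9.96 and 12.73 in CM-CKO heads, against 7.27, 8.19, 8.51 and 8.22 in Het heads. It rose by 3.23 ± 0.46 or 9.39-fold (adjusted p = 0.000563), and CM-CKO 4 and 2 lay above CM-CKO 1 and 3. Slc4a1, the anion exchanger of the red cell membrane, measured 12.32, 13.53, 11.68 and 13.62 in CM-CKO heads, against 9.75, 9.91, 10.27 and 9.72 in Het heads. It rose by 2.88 ± 0.35 (adjusted p = 0.00013) in the same order of heads. Kel, a blood group membrane protease, rose by 3.14 ± 0.45 (adjusted p = 0.00055), Slc38a5, a glutamine transporter, by 2.97 ± 0.47 (adjusted p = 0.00137) and Trim10, needed for red cell maturation, by 2.81 ± 0.47 (adjusted p = 0.00189). The spectrin gene Sptb rose by 2.87 ± 0.38 (adjusted p = 0.000312). The globins Hba-a1 (0.56), Hba-x (0.43), Hbb-y (0.049) and Hbb-bh1 (0.023) did not pass. Their levels, 12.97 to 14.05, were at the top of the scale, which limits the differences that can be read. With slide as a block Hba-a1 and Hba-x passed, at 0.85 and 0.63 (adjusted p = 0.0209 and 0.0266), and the mean of the Hbb-bh1 probes passed at 0.89 (adjusted p = 0.0072).

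Genes outside the list that rose alongside included Ncf4 (3.11 ± 0.47, adjusted p = 0.00088), a subunit of the phagocyte oxidase, Cited4 (2.91 ± 0.45, adjusted p = 0.00109), a transcription co-activator, and Tmod1 (2.85 ± 0.46, adjusted p = 0.00159), which caps actin in the red cell skeleton. The called genes with the widest spread among CM-CKO heads, after Hspa1a, were the red cell membrane gene Rhag, Tent5c, the erythroid repressor Gfi1b, the skeleton gene Add2, Mrap, Ermap and the erythropoietin receptor Epor. Rhag, for example, measured 6.69, 8.50, 6.02 and 9.72 in CM-CKO heads, against 5.03, 4.73, 5.51 and 5.61 in Het heads. These rose by 1.69 (Add2) to 2.63 (Gfi1b) (adjusted p = 0.0409 and 0.0041) with SDs of 1.44 to 1.69 in CM-CKO heads. Their calls ended for Add2 without CM-CKO 2, CM-CKO 4, Het 1, Het 2, Het 3 or Het 4 (adjusted p up to 0.128), Tent5c without CM-CKO 2 (adjusted p = 0.0513) and Mrap without CM-CKO 2 (adjusted p = 0.0631), and for Add2 also in the authors' value table. With the 8 arrays alone those of Rhag and Ermap ended too (adjusted p = 0.0719 and 0.0534).

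Megakaryocyte and platelet genes rose in 11 of 14 cases and fell in 0, with a median of 1.20 (1.30 with slide as a block, 0.94 within slide 1, 1.85 within slide 3). With the 8 arrays alone 7 rose. The platelet chemokine Pf4 measured 9.27, 9.46, 7.46 and 9.35 in CM-CKO heads, against 6.17, 6.46, 6.25 and 5.63 in Het heads. It rose by 2.76 ± 0.39 (adjusted p = 0.00055), and CM-CKO 3 lay nearest to the Het heads. The platelet tubulin Tubb1 rose by 2.15 ± 0.35 (adjusted p = 0.00169), the integrin Itga2b by 1.62 ± 0.34 (0.00831) and the von Willebrand receptor subunit Gp5 by 1.41 ± 0.21 (0.000957). Treml1 rose by 1.73 ± 0.33 (adjusted p = 0.00482) and the thrombin receptor F2rl2 by 1.64 ± 0.28 (0.00257). Vwf, shared with endothelium, stood at 0.39 (adjusted p = 0.196). Of the macrophage genes with a probe, 12 were not detected on enough arrays, and 0 of the 7 tested rose or fell by limma (0 at an unadjusted p under 0.05), at a median of −0.022. The summed signal of the 7 ran from 515.3 to 711.8 in CM-CKO heads and from 503.6 to 639.3 in Het heads. The leukocyte gene Laptm5 stood at 0.25 (adjusted p = 0.228).

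The 4 CM-CKO heads did not deviate equally. On the first principal component of the 15 arrays (37.3% of the variance) CM-CKO 1 to 4 scored 16.6, 33.6, 9.6 and 45.2, against −11.1 to −7.6 for the Het heads. Of the 482 genes that rose, CM-CKO 4 was farthest from the Het mean for 289 (60%), CM-CKO 2 for 117, CM-CKO 1 for 44 and CM-CKO 3 for 32. Among the 503 that fell the counts were 273, 149, 43 and 38. The median SD of the risen genes was 0.33 in CM-CKO heads and 0.18 in Het heads, against 0.19 in both groups over all genes.

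This grading held for some gene groups and not for others. The red blood cell list stood 1.30, 2.42, 0.76 and 3.06 above the Het mean in CM-CKO 1 to 4, the platelet list 1.28, 1.44, 0.36 and 1.56 and the ATF4 list 0.65, 0.87, 0.39 and 1.00. In each of these CM-CKO 4 was highest and CM-CKO 3 lowest. The hypoxia list (0.91, 1.09, 0.93 and 0.80), glycolysis (0.51, 0.57, 0.48 and 0.61) and the SRF list (0.56, 0.55, 0.63 and 0.48) were nearly level, and CM-CKO 4 was the lowest in the first and the last of them. The arterial list stood at −0.32, −0.61, −0.28 and −0.74, in the order of the red blood cell list with the sign turned. This order was not particular to arteries. The forebrain and midbrain list (−0.24, −0.32, −0.16 and −0.45) shared it, as did the TWIST partner, early neuron and hindbrain lists. The general endothelial, matrix and mesenchymal lists were also lowest in CM-CKO 4 and next lowest in CM-CKO 2. The part of red cell content in the other graded lists was not tested. Among genes changed at least 2-fold, the most even over the CM-CKO heads were Stc2, Fam162b, Lamc3, Pdk1, Tmem119, Plekha2, Myl9 and Ddit4, with SDs of 0.066 to 0.13. No CM-CKO array detected Fam162b or Lamc3, so their SDs there describe background signal and not an even level.

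**Figure D3:**
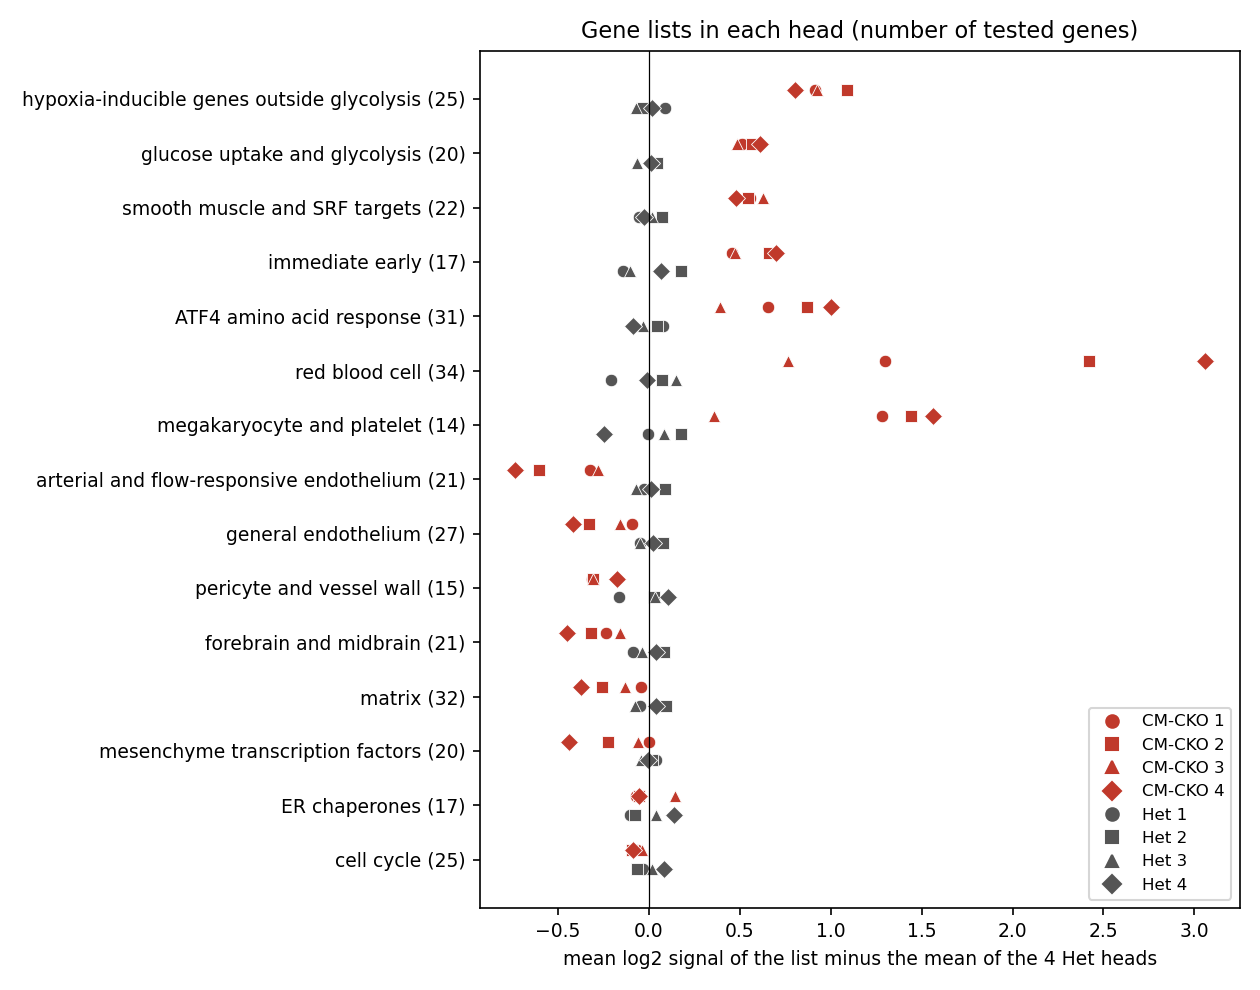
Mean log2 signal of the tested genes of 15 lists in each CM-CKO head (red, upper row of a list) and each Het head (grey, lower row), minus the mean of the 4 Het heads. Hypoxia, glycolysis and SRF lists lie in a narrow band in all CM-CKO heads, whereas the red blood cell list runs from 0.76 in CM-CKO 3 to 3.06 in CM-CKO 4.

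**Figure D4:**
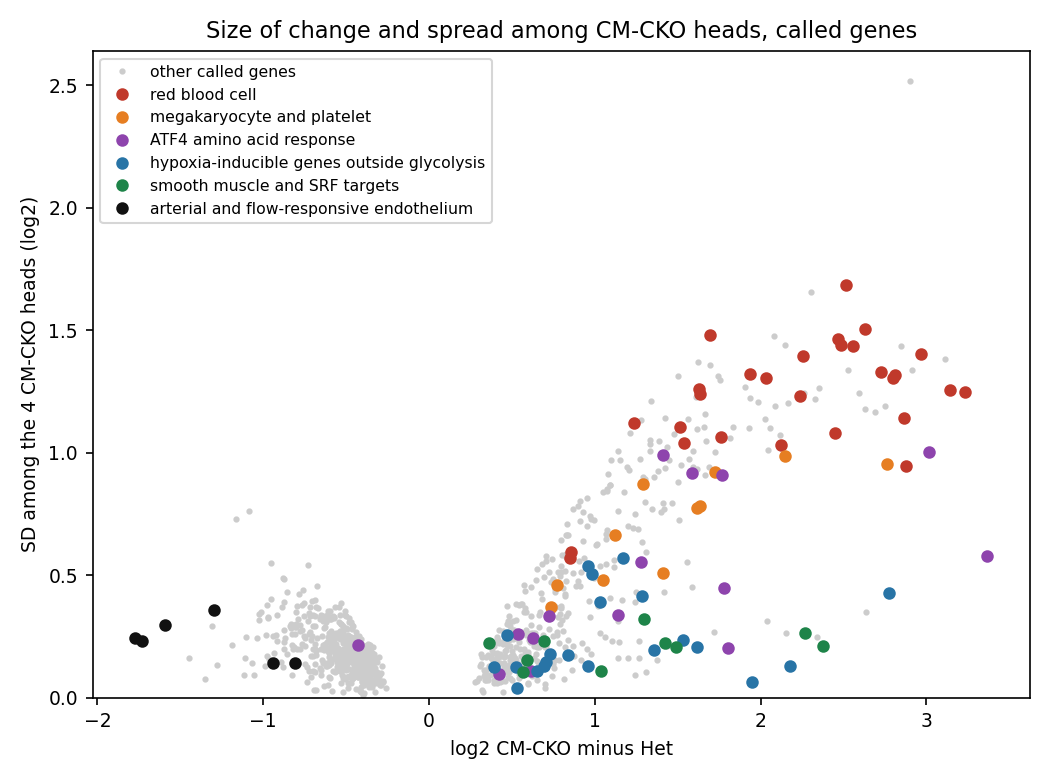
For each of the 985 called genes, the log2 change between CM-CKO and Het heads (horizontal) and the SD among the 4 CM-CKO heads (vertical), coloured by list. Red blood cell genes combine large rises with SDs mostly above 1, while Stc2 (SD 0.066) and Ddit4 (SD 0.13) have rises near 2 with little spread.

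Vessel genes led the falls. In arterial and flow-responsive endothelium 6 of 21 members fell and 0 rose, with a median of −0.32 (−0.38 with slide as a block, −0.31 within slide 1, −0.59 within slide 3). Gja4, a connexin of arterial endothelium, measured 6.04, 5.65, 6.22 and 5.89 in CM-CKO heads, against 7.40, 7.78, 7.84 and 7.86 in Het heads. It fell by 1.77 ± 0.16 (adjusted p = 4.11e-06), the largest fall among called genes detected on all 4 arrays of a group. Klf2, the factor that shear stress induces in endothelium, measured 5.37, 5.06, 5.24 and 5.62 in CM-CKO heads, against 6.94, 7.47, 6.93 and 6.87 in Het heads. It fell by 1.73 ± 0.15 (adjusted p = 4.05e-06). Aplnr, the apelin receptor, measured 7.23, 6.84, 7.56 and 7.12 in CM-CKO heads, against 8.38, 9.03, 8.82 and 8.88 in Het heads. It fell by 1.59 ± 0.16 (adjusted p = 1.51e-05), and neither gene's groups overlapped. Gja5, another connexin of arteries, fell by 1.30 ± 0.15 (adjusted p = 5.7e-05), the nitric oxide synthase Nos3 by 0.94 ± 0.16 (0.00209) and the endothelial factor Sox7 by 0.81 ± 0.14 (0.00252). The Notch target Hey1 stood at −0.35 (adjusted p = 0.0571), the semaphorin co-receptor Nrp1 at −0.43 (0.0876), the receptor Notch4 at −0.39 (0.105) and the chemokine receptor Cxcr4 at 0.20 (0.35). Hey1 passed without background correction (adjusted p = 0.034), Nrp1 with the mean of its probes (0.0115) and Notch4 with slide as a block (0.0353).

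Of 27 general endothelial genes 11 fell and 1 rose, with a median of −0.32 (−0.34 with slide as a block, −0.19 within slide 1, −0.43 within slide 3). The sialomucin Emcn measured 9.40, 9.12, 9.41 and 8.96 in CM-CKO heads, against 9.79, 9.96, 9.95 and 10.25 in Het heads. It fell by 0.77 ± 0.12 (adjusted p = 0.00139). The progenitor marker Cd34 fell by 0.80 ± 0.18 (adjusted p = 0.013), the vessel matrix gene Mmrn2 by 0.78 ± 0.19 (0.021), the tight junction gene Cldn5 by 0.63 ± 0.15 (0.014) and the angiopoietin receptor Tek by 0.52 ± 0.11 (0.00838). Esm1, a proteoglycan of sprouting tip cells, went the other way, by 1.18 ± 0.31 (adjusted p = 0.0274), with CM-CKO 4 at 5.44, within the Het range. With slide as a block the calls of Cldn5 (adjusted p = 0.0719) and Esm1 (0.182) ended. Calls also ended for Cd34 without CM-CKO 2 (adjusted p = 0.0517), Mmrn2 without CM-CKO 2, CM-CKO 4 or Het 2 (adjusted p up to 0.0803), Cldn5 without CM-CKO 2 (adjusted p = 0.0502) and Esm1 without CM-CKO 1, CM-CKO 2, CM-CKO 3, Het 2 or Het 3 (adjusted p up to 0.0804). The count of fallen members was 3 without CM-CKO 2, 7 without CM-CKO 4 or Het 2, 6 with median scaling and 2 with the 8 arrays alone, where the Tek call also ended (adjusted p = 0.0693).

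Among pericyte and vessel wall genes 5 of 15 fell and 1 rose, with a median of −0.30 (−0.17 with slide as a block). Cygb, a globin of stromal and mural cells, measured 4.93, 4.64, 4.80 and 4.57 in CM-CKO heads, against 6.34, 6.37, 6.07 and 5.95 in Het heads. It fell by 1.45 ± 0.13 (adjusted p = 5.77e-06) and was detected on 2 of 4 CM-CKO arrays. The adhesion molecule Vcam1 fell by 1.03 ± 0.22 (adjusted p = 0.00831), the platelet-derived growth factor receptors Pdgfrb and Pdgfra by 0.88 ± 0.17 (0.00534) and 0.49 ± 0.10 (0.00863), and the chemokine Cxcl12 by 0.53 ± 0.10 (0.00404). The Pdgfra call ended with the 8 arrays alone (adjusted p = 0.068). Cspg4, the proteoglycan NG2, was higher by 1.5 ± 0.43 (adjusted p = 0.0407), with 5.88, 6.66, 5.69 and 8.56 in CM-CKO heads against 4.76, 5.27, 5.26 and 5.49 in Het heads. That call ended without CM-CKO 2, Het 1, Het 2, Het 3 or Het 4 (adjusted p up to 0.0909). It also ended with the 8 arrays alone (0.161), without background correction and in the authors' value table. Gas6, a ligand of TAM receptors made in vessels, fell by 1.11 ± 0.11 (adjusted p = 2.01e-05). Fam162b was not detected on any CM-CKO array and was at least 2.19-fold lower (adjusted p = 6.01e-05), with 5.49, 6.06, 5.68 and 6.26 in Het heads.

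Of 20 mesenchymal transcription factors tested, 3 fell and 0 rose, with a median of −0.13 (−0.31 with slide as a block, −0.13 within slide 1, −0.48 within slide 3). Alx4, a homeobox gene of the frontonasal and skull mesenchyme, measured 8.71, 8.0, 8.13 and 7.53 in CM-CKO heads, against 9.29, 8.96, 8.96 and 8.65 in Het heads. It fell by 0.87 ± 0.19 (adjusted p = 0.0109). Foxp1 fell by 0.59 ± 0.16 (adjusted p = 0.0289) and Prrx1, a marker of skeletal mesenchyme, by 0.45 ± 0.13 (0.0483). The Foxp1 call ended with slide as a block (adjusted p = 0.138). Both calls ended with median scaling, and for Foxp1 without CM-CKO 2, CM-CKO 4, Het 2, Het 3 or Het 4 (adjusted p up to 0.0831) and Prrx1 without CM-CKO 1, CM-CKO 2, CM-CKO 4, Het 1, Het 2, Het 3 or Het 4 (adjusted p up to 0.13). Among members that did not pass, Meis2 stood at −0.10, Sox9 at −0.32 and Msx1 at −0.40 (adjusted p = 0.637, 0.112 and 0.0793). Sox9 passed with slide as a block (0.013) and Msx1 without Het 1 (0.00725). With the 8 arrays alone all 3 calls ended, with an adjusted p of 0.07 for Alx4, 0.085 for Foxp1 and 0.09 for Prrx1. Among 8 dimer partners and inhibitors of TWIST proteins, Tcf3, an E protein, fell by 0.53 ± 0.13 (adjusted p = 0.0193), besides Twist2. The Tcf3 call ended with slide as a block (0.118), with the 8 arrays alone (0.0706), with median scaling and without Het 2 or Het 4 (adjusted p up to 0.0653). The E protein Tcf4 stood at −0.18 (adjusted p = 0.446).

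Of 32 matrix genes 5 fell and 0 rose, with a median of −0.15 (−0.14 with slide as a block, −0.045 within slide 1, −0.40 within slide 3). Lum, a collagen-binding proteoglycan of mesenchyme, measured 7.43, 7.35, 7.37 and 7.13 in CM-CKO heads, against 8.52, 8.49, 8.58 and 8.80 in Het heads. It fell by 1.28 ± 0.094 (adjusted p = 6.97e-07), and all CM-CKO heads lay more than 1 log2 unit below every Het head. The collagens Col6a1, Col3a1, Col9a1 and Col26a1 fell by 0.75 ± 0.15 (adjusted p = 0.00635), 0.62 ± 0.16 (0.0274), 0.76 ± 0.19 (0.0215) and 0.41 ± 0.11 (0.0281), while the basement membrane collagen Col18a1 stood at −0.13 (0.519). Calls ended for Col3a1 without CM-CKO 1, CM-CKO 2, CM-CKO 4, Het 1, Het 2 or Het 3 (adjusted p up to 0.0817), Col9a1 without CM-CKO 2, CM-CKO 4 or Het 3 (adjusted p up to 0.0738) and Col26a1 without CM-CKO 2, CM-CKO 4, Het 2 or Het 3 (adjusted p up to 0.083), and that of Col26a1 also with median scaling. The 8 arrays alone left 2 falls in the list. Lamc3, a laminin chain, was not detected on any CM-CKO array and was at least 1.88-fold lower (adjusted p = 0.000119), but its call ended in the authors' value table, where its change was not past the threshold (adjusted p = 0.91). Other large falls were in the acyltransferase Mogat2 (1.19 ± 0.12 lower, adjusted p = 1.61e-05), in Tmem119 (1.06 ± 0.17 lower, 0.00152) and in the proteasome subunit Psmb1 (1.16 ± 0.24 lower, 0.00746), which measured 11.60, 10.54, 11.93 and 10.51 in CM-CKO heads, against 12.23, 12.35, 12.27 and 12.40 in Het heads. The Psmb1 call ended with the 8 arrays alone (adjusted p = 0.0626).

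Regulators of head muscle mesoderm, a direct derivative of the Cre lineage, gave 2 falls among 12 tested genes and 0 rises, with a median of −0.063. The LIM homeobox gene Lhx2, also made in forebrain and eye, measured 5.82, 5.85, 6.13 and 5.51 in CM-CKO heads, against 6.77, 6.78, 6.74 and 6.71 in Het heads. It fell by 0.92 ± 0.13 (adjusted p = 0.000361). The co-activator Eya1 also fell by 0.53 ± 0.13 (adjusted p = 0.0199). That call was lost on averaging its probes (0.15) and without CM-CKO 2, CM-CKO 4, Het 3 or Het 4 (adjusted p up to 0.0688). Isl1 (−0.15) and Tbx1 (0.30), which mark pharyngeal mesoderm, did not pass (adjusted p = 0.614 and 0.204). In the list of neural crest and pharyngeal arch genes 1 of 15 genes rose and 0 fell (6.67% called, against 8.47% of all genes), at a median of −0.0029. The riser was the endothelin Edn1, by 0.60 ± 0.16 (adjusted p = 0.0273), whose call ended with slide as a block (0.158), with median scaling and without CM-CKO 1, CM-CKO 2, Het 2, Het 3 or Het 4 (adjusted p up to 0.0794).

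Genes of the forebrain and midbrain, tissues outside the Cre lineage, gave 5 falls and 0 rises among 21, with a median of −0.21 (−0.39 with slide as a block, −0.22 within slide 1, −0.54 within slide 3). Fezf1, a forebrain zinc finger factor, measured 8.96, 9.0, 9.04 and 8.60 in CM-CKO heads, against 9.71, 9.84, 9.71 and 9.85 in Het heads. It fell by 0.88 ± 0.10 (adjusted p = 9.05e-05), with an interaction of −0.97 ± 0.15 (adjusted p = 0.00458). Sox3, a factor of neural progenitors, fell by 0.97 ± 0.14 (adjusted p = 0.000563), Nr2e1, also known as tailless, by 0.98 ± 0.17 (0.00308), the eye field gene Rax by 0.88 ± 0.20 (0.0149) and Zic2 by 0.69 ± 0.12 (0.00274). Otx1 stood at −0.30 (adjusted p = 0.0777) and passed with slide as a block (0.0214). None of 8 hindbrain genes passed by limma (0 at an unadjusted p under 0.05, median −0.17). Of 11 trunk genes with a probe 7 were not detected on enough arrays, and of the 4 tested 0 passed by limma (0 at an unadjusted p under 0.05). Of 14 early neuron genes 1 passed (7.14%, against 8.47% of all genes). This was Tagln3, which fell by 0.54 ± 0.15 (adjusted p = 0.0392). Its call ended with slide as a block (0.128), with median scaling and without CM-CKO 1, CM-CKO 2, CM-CKO 3, CM-CKO 4, Het 2, Het 3 or Het 4 (adjusted p up to 0.114).

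The surface and pharyngeal epithelium list gave 3 rises and 0 falls among 16. The keratin Krt19 measured 6.70, 6.32, 6.52 and 6.95 in CM-CKO heads, against 5.49, 6.01, 5.13 and 5.74 in Het heads. It rose by 1.03 ± 0.17 (adjusted p = 0.00189), and the simple epithelial keratins Krt8 and Krt7 by 0.52 ± 0.13 (0.0219) and 0.40 ± 0.10 (0.0233). The last 2 calls ended with median scaling and for Krt8 without CM-CKO 4 or Het 3 (adjusted p up to 0.0669) and Krt7 without CM-CKO 4, Het 3 or Het 4 (adjusted p up to 0.0714). The 8 arrays alone left 1 rise in the list.

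In the signalling lists, read against 8.47% of all genes called, FGF feedback genes gave 0 of 12 and Notch genes 0 of 8 by limma (1 and 4 at an unadjusted p under 0.05), BMP and TGF-beta genes 1 of 13 (7.69%: Gdf10, 0.76 ± 0.15 lower, adjusted p = 0.00575) and Wnt genes 2 of 17 (11.8%). The Wnt antagonist Dkk3 fell by 0.52 ± 0.11 (adjusted p = 0.0104) and the Wnt target Sp5 was higher by 0.46 ± 0.13 (0.0447). Among 18 integrin and adhesion genes 1 passed (5.56%), Itga3, which rose by 0.56 ± 0.10 (adjusted p = 0.00385). The Dkk3 and Itga3 calls ended with median scaling, and that of Dkk3 also with the 8 arrays alone (0.0546). The Sp5 call ended with slide as a block (0.17), with the 8 arrays alone (0.115) and with median scaling. It also ended without CM-CKO 1, CM-CKO 2, CM-CKO 3, Het 3 or Het 4 (adjusted p up to 0.127). In the insulin-like growth factor list 3 of 12 passed (25%). The binding proteins Igfbp3 and Igfbp2 rose by 0.84 ± 0.11 (adjusted p = 0.000278) and 0.75 ± 0.14 (0.00349), the growth factor Igf1 fell by 0.78 ± 0.15 (0.00575) and Igf2, near the top of the scale, stood at 0.037 (0.837). Igfbp3 measured 8.52, 8.37, 8.51 and 8.01 in CM-CKO heads, against 7.48, 7.6, 7.51 and 7.49 in Het heads. In the ephrin and semaphorin list 4 of 21 fell (19%) and 0 rose: the receptors Epha5 and Epha3 by 0.64 ± 0.15 (0.0142) and 0.60 ± 0.14 (0.0178), and the ligands Efna4 and Efna1 by 0.53 ± 0.10 (0.00547) and 0.42 ± 0.12 (0.0377). Epha5 was detected on 2 of 4 CM-CKO arrays. Calls ended for Epha3 without Het 3 (adjusted p = 0.0512) and Efna1 without CM-CKO 2, CM-CKO 4, Het 1, Het 2 or Het 4 (adjusted p up to 0.107), and for both with median scaling. The 8 arrays alone left 2 falls in the list, and slide as a block gave 8.

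The 25 cell cycle genes gave 1 rise and 2 falls (12% called, against 8.47% of all genes), with a median of −0.11. Rrm2, the nucleotide reductase subunit of S phase, fell by 0.48 ± 0.10 (adjusted p = 0.00831), Ccne1 (cyclin E1) by 0.48 ± 0.12 (0.0271), and Ccnd3 (cyclin D3) rose by 0.41 ± 0.11 (0.034). Calls ended for Ccne1 without CM-CKO 1, CM-CKO 2, Het 2, Het 3 or Het 4 (adjusted p up to 0.0762) and Ccnd3 without CM-CKO 2, CM-CKO 4, Het 1, Het 2 or Het 3 (adjusted p up to 0.0945), that of Ccne1 also with slide as a block (0.0681) and that of Ccnd3 with median scaling. The Rrm2 call was lost on averaging its probes (0.101). With the 8 arrays alone the calls of Rrm2 (adjusted p = 0.0711), Ccne1 (0.0864) and Ccnd3 (0.152) all ended. Of 14 p53 targets 2 rose and 0 fell (14.3% called). These were the cell cycle inhibitor Cdkn1a, by 0.75 ± 0.16 (adjusted p = 0.00838), and the polymerase Polk, by 0.59 ± 0.13 (0.0109). Cdkn1a measured 7.76, 7.43, 7.62 and 7.66 in CM-CKO heads, against 6.88, 7.01, 7.10 and 6.48 in Het heads. The Polk call ended with slide as a block (0.0663), with the 8 arrays alone (0.0706) and with median scaling.

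Because the Cre gene sits in the Mesp1 locus, Cre carriers share the stretch of chromosome 7 around it, whose strain origin can differ from that of non-carriers. The part of linked strain differences was not tested. Within 10 Mb of Mesp1, 8 of 70 tested genes passed (11.4%), 4 higher and 4 lower, against 8.46% of all other genes. The largest were Whamm (0.93 ± 0.26, adjusted p = 0.0388), Abhd2 (0.79 ± 0.23, 0.0418), Fes (−0.75 ± 0.17, 0.0144), Hapln3 (−0.61 ± 0.14, 0.0133), Unc45a (−0.60 ± 0.12, 0.00691) and Tm6sf1 (−0.51 ± 0.13, 0.0216). Calls ended for Whamm without CM-CKO 2, CM-CKO 4, Het 1, Het 2 or Het 4 (adjusted p up to 0.0981), Abhd2 without CM-CKO 2, Het 1, Het 2, Het 3 or Het 4 (adjusted p up to 0.0887), Fes without CM-CKO 2 (adjusted p = 0.0546) and Tm6sf1 without CM-CKO 2, CM-CKO 4, Het 2 or Het 4 (adjusted p up to 0.0794), that of Fes also with slide as a block (0.0531), and those of Whamm and Abhd2 in the authors' value table. With the 8 arrays alone the calls of Whamm (adjusted p = 0.131), Abhd2 (0.1565), Fes (0.0546), Hapln3 (0.0771) and Tm6sf1 (0.0677) ended.

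Of the 985 genes 286 did not pass with slide as a block, and 0 of them changed sign. Those with the lowest p among the 286 were Rnf185, Slc6a15, Dmrt3, Shisa4 and Hlx. Hlx, a homeobox gene, measured 5.26, 4.75, 5.36 and 5.39 in CM-CKO heads, against 5.61, 6.31, 5.93 and 6.23 in Het heads, and its adjusted p was 0.00941 without the block and 0.0686 with it. For Rnf185, Slc6a15, Dmrt3 and Shisa4 the changes were −0.60, 0.62, −0.68 and −0.82, with adjusted p from 0.00814 to 0.00923 without the block and from 0.0516 to 0.0588 with it. In all 5 genes Het 1, the only Het head on the slide of CM-CKO 1 to 3, was the Het head nearest to the CM-CKO heads. This largely follows from choosing genes that lose the call with slide as a block. Slc6a15 had the opposite sign in the authors' value table (−0.079, adjusted p = 0.31).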

How the data were processed

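RNA of 15 whole mouse heads was measured on Illumina bead arrays of 45281 probes, 1 head per array. The authors deposited unnormalized probe intensities without background subtraction, per the file headers. Detection p-values were deposited beside them per the file headers, but 74.4 to 75.6% were out of place by more than 0.05 against the rank of the signals, so they were put back by rank. The detection column of Het 1 held log2 values in place of p-values and was not used as such. Its detection p-values were filled in by rank from the mean of the other 14 arrays. Detection in Het 1 was therefore inferred and not measured. The authors' value table holds quantile-normalized log2 signals without background correction, as its values show. It equals quantile-normalized signals within 0.02 for 42477 probes and differs for 2804. The other processing steps are not given in the sources used here.

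Signals were corrected with limma's nec (normexp, offset 16), quantile normalized and put on the log2 scale. Probes with a detection p under 0.05 on at least 3 arrays and 1 gene name in GEO's platform annotation were kept (21869), and the brightest probe stood for each of 11625 genes. A gene detected in the CM-CKO heads alone could therefore be tested because it was high there. This can raise the counts of rises, in the lists and over all genes. Limma 3.58.1 in R 4.3.3 fitted all 4 genotypes together, with Benjamini-Hochberg adjustment over all genes and a threshold of 0.05. Errors beside changes are standard errors from the spread pooled over all 4 genotypes, and those beside means are SDs. Where no array of a group detected a gene, the fold is a lower bound from the dimmest detected signal. The number of arrays limits the precision.

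Genes were named by rule: the largest 12 rises and falls, the targeted genes and their relatives, the largest called and brightest uncalled members of each list, the 12 lowest interaction p-values, the extremes of spread, the genes near Mesp1 and those that depend on slide. Members and lists were chosen with earlier results of these data known. The alternatives were median scaling, no background correction, the value table, no detection filter, the mean of probes, slide and replicate blocks, the 8 arrays alone and leaving out each head. Figures were drawn with matplotlib 3.10.9.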

Additional observations from a re-analysis of the deposited data

Results flagged for a closer look

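Some of the 172 named genes had 1 head far from the other 3 of its group, with a gap past Dixon's critical value. This was so for 17 of 344 gene and group pairs, and chance flags about 1 in 20. In CM-CKO heads these were Gars in CM-CKO 3 (13.19, others 13.33 to 13.34), Wars in CM-CKO 2 (10.09, others 10.27 to 10.30), Pf4 in CM-CKO 3 (7.46, others 9.27 to 9.46) and Treml1 in CM-CKO 3 (5.36, others 7.05 to 7.29). Further ones were Itga3 in CM-CKO 4 (8.54, others 8.87 to 8.90), Pdgfrb in CM-CKO 1 (6.69, others 5.88 to 6.01), Gadd45b in CM-CKO 3 (4.97, others 5.35 to 5.43), Hspb1 in CM-CKO 4 (6.50, others 5.63 to 5.77) and Igfbp2 in CM-CKO 1 (10.77, others 11.01 to 11.02). In Het heads they were Slc7a3 in Het 3 (6.20, others 6.66 to 6.72), Gapdh in Het 1 (13.52, others 13.58 to 13.59), Slc38a5 in Het 1 (6.47, others 7.04 to 7.16), Trim10 in Het 1 (6.21, others 6.90 to 7.02) and Gp5 in Het 4 (4.81, others 5.18 to 5.25). The others were Klf2 in Het 2 (7.47, others 6.87 to 6.94), Msx1 in Het 1 (9.98, others 10.53 to 10.60) and Dkk3 in Het 2 (7.94, others 7.83 to 7.85).

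For 54 of the 172 named genes the Cre effect over a deleted allele differed from that over a wild-type allele by the interaction test in limma (largest adjusted p = 0.0496). Over all 11625 genes 124 passed (1.07%). Many named genes were chosen by their change between CM-CKO and Het heads or by their interaction p. Their higher share therefore follows from the choice. The values are log2 differences, (CM-CKO minus Het) minus (CM-Het minus Control). In the ATF4 list the difference was Chac1 (3.07), Trib3 (2.92), Vldlr (1.54) and Slc7a3 (1.54). In the hypoxia and glycolysis lists the difference was Bhlhe40 (2.83), Ddit4 (1.82), Stc2 (1.73), Ankrd37 (1.66), Ppp1r3c (1.63), Egln3 (1.33), Pdk1 (1.02), Pgm1 (1.12) and Aldoc (0.92). In the SRF and immediate early lists the difference was Acta1 (2.44), Actc1 (2.26), Tagln (1.42), Acta2 (1.26), Ccn1 (1.65), Myl9 (1.01), Ier3 (2.63) and Egr1 (1.80). In the red blood cell list the difference was Alas2 (3.49), Kel (3.23), Slc38a5 (3.37), Slc4a1 (3.16), Sptb (2.97) and Trim10 (3.15). In the platelet list the difference was Pf4 (3.22), Tubb1 (2.36) and Gp5 (1.57). In the endothelial lists the difference was Gja4 (−2.0), Klf2 (−1.46), Aplnr (−1.49), Gja5 (−1.36), Nos3 (−1.17), Sox7 (−0.90), Emcn (−0.82) and Tek (−0.86). Of the remaining genes the difference was positive for Ncf4 (3.61), Cited4 (3.08), Tmod1 (3.25), Ankrd1 (2.81), Mt1 (2.11), Plekha2 (1.20) and Slc6a15 (0.84). It was negative for Cygb (−0.94), Pdgfra (−0.71), Lum (−1.17), Gas6 (−1.09), Txnip (−1.40), Fam162b (−1.03), Lhx2 (−0.82), Fezf1 (−0.97) and Hlx (−1.20).

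Of 3235 detected probes with no gene name, 123 (3.8%) passed between CM-CKO and Het heads by limma, 68 higher and 55 lower.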

How the results depend on the processing

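The 985 changed genes became 582 with median scaling (325 higher and 257 lower, or 55.8% higher against 48.9%, with the median of all genes at −0.087) and 333 when only the 8 CM-CKO and Het arrays were fitted (194 higher and 139 lower). Leaving out 1 head gave 504 (without CM-CKO 2) to 1272 genes (without Het 1). The count was within 1.5 times with no background correction (1086), the authors' value table (1037), no detection filter (918), the mean of probes (997) and slide as a block (1172). The 124 interaction genes became 263 with slide as a block (183 higher and 80 lower), and 57 to 330 when single heads were left out. Replicate numbers are in the labels, but same-numbered CM-CKO and Het heads did not deviate together throughout (r = 0.329, −0.094, −0.049 and 0.125), and the pairs above 0.1 shared a slide, so the numbers were not taken as pairs. A replicate block gave 983 changed genes and 153 interaction genes, and a replicate block with slide gave 681 (67.3% higher) and 87. Twist1 ran from 0.076 without Het 1 to 0.38 with replicate block and slide over the 17 alternatives, with limma adjusted p from 0.144 to 0.758, and its exact permutation p, where recomputed, did not pass. Leaving out single heads gave 0.076 to 0.31. The cause of these shifts was not tested. Fewer arrays leave fewer degrees of freedom. The joint fit also pools the spread of a gene over all groups. Risen genes had a median SD of 0.33 in CM-CKO heads and 0.18 in Het heads, so pooled standard errors can be too small for such genes. The part of this unequal spread in the counts was not tested.

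Among the 172 named genes, the sign turned for Hif1a (0.66 with the mean of probes, and −0.35 to 0.17 when single heads were left out), Hbb-bh1 (−0.054 without Het 1 to 0.066 without Het 4, and 0.89 with the mean of its probes, adjusted p = 0.0072) and Slc6a15 (−0.079 in the authors' value table). Calls were lost for 44 of the 172 in the 8 arrays alone, 32 with replicate block and slide, 28 without CM-CKO 2, 16 with slide as a block, 16 with median scaling and 0 with the replicate block alone. Signals at the top of the scale and below background limit what can be read for globins and for genes not detected in 1 group.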
